A study of Homo sapiens with 6 samples.

Results

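The endothelial molecules that catch leukocytes were followed here as 7 genes: ICAM1, ICAM2, VCAM1, SELE, SELP, ALCAM and MCAM. The members were all probe sets that the platform annotation assigns to exactly 1 of these symbols, which gave 13 of the 54613 probe sets tested and 7 of 19775 genes. ICAM1 and ALCAM had 3 probe sets each, ICAM2 and MCAM 2 each, and VCAM1, SELE and SELP 1 each. Another 4 probe sets list MCAM together with a second gene and were not used. The cells were human umbilical vein endothelial cells (HUVECs), primary endothelial cells grown in a medium with growth factors, serum and hydrocortisone. One group of 3 arrays received a scrambled control siRNA and the other group of 3 arrays an siRNA against ANRIL, a long noncoding RNA of chromosome 9p21, by the same transfection reagent. The labels name no cytokine treatment, so both groups are read as cells without one. They do not say whether the 3 samples of a group came from separate cultures or donors, and p-values then measure only the spread between these samples, which may be technical.

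Leukocytes leave the blood in steps. Selectins on the endothelium catch the sugars of passing leukocytes and make them roll, E-selectin (SELE) after induction by cytokines and P-selectin (SELP) after release from Weibel-Palade bodies, the storage granules of endothelial cells. ICAM1 and VCAM1, both members of the immunoglobulin superfamily, then bind leukocyte integrins and hold the cells firmly, while ICAM2 is present on resting endothelium and lies partly at cell junctions. ALCAM, the ligand of CD6, and MCAM, also known as CD146, sit at endothelial junctions and take part in leukocyte passage as well. In endothelium ICAM1, VCAM1 and SELE are the textbook targets of TNF and interleukin-1 acting through NF-kB.

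The siRNA is shown because it defines the comparison, and the promoters of the 3 inducible genes because they share control by NF-kB, while ICAM1 and VCAM1 read lower with ANRIL siRNA and SELE did not, none of them past the threshold. The ANRIL siRNA is a duplex with strands of 25 and 27 bases, written here 5′ to 3′ from the treatment description.
ANRIL siRNA, sense: ggauaugugccaugaguaagaauaa
ANRIL siRNA, antisense: uuauucuuacucauggcacauauccau

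RefSeq promoter entries of build GRCh38.p14 matched 6 of the 7 genes, all except ICAM2. The 200 bases before the start of ICAM1, VCAM1 and SELE are given 5′ to 3′ on the strand of the gene. Capitals mark matches on either strand to GGNNNTTCC, letters that many NF-kB sites fit, and to TATAAA, the TATA box. The letters were chosen with these promoters in view.
ICAM1, chr19:10270920-10271119, plus strand: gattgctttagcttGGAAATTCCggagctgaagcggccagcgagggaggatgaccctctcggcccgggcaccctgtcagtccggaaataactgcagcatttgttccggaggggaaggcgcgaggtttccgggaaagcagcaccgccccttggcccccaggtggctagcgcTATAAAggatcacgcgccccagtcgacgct
VCAM1, chr1:100719542-100719741, plus strand: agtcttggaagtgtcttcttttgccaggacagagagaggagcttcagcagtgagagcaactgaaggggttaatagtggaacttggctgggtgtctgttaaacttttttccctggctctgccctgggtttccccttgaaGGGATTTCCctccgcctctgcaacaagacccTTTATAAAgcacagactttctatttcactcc
SELE, chr1:169734080-169734279, minus strand: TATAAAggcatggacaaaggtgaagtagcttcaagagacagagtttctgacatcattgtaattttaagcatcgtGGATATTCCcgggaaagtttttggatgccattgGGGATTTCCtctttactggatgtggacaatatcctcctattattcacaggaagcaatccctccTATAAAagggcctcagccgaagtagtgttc

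Counted from the start of the gene and within these stretches, the NF-kB-like letters begin at −186 in ICAM1, at −62 in VCAM1 and at −126 and −93 in SELE, and each of the 3 promoters has TATAAA near −30. VCAM1 carries TATAAA at −31 and −29, on opposite strands and overlapping, and SELE has a further one at −200. Farther upstream VCAM1 has another GGNNNTTCC at −219 and TATAAA at −205, outside the stretch shown. ICAM1 matches GGNNNTTCC on both strands at 1 position. Over all 35116 RefSeq promoters, in windows of 250 bases before to 50 after the start, 20.1% hold GGNNNTTCC and 11.5% hold TATAAA on either strand. In the same window, SELP and ALCAM hold neither, and MCAM has GGNNNTTCC alone, at 31 bases after its start. A match is a stretch of letters and was not tested for binding.

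ICAM1 and ICAM2 had the lowest differences of the 7 genes with ANRIL siRNA, while SELE and ALCAM lay close to 0, and none of the 13 probe sets passed the threshold in the limma fit. Values are log2 intensities after RMA, and differences are ANRIL siRNA minus control siRNA, so a difference of −1 would be a halving. Of the 13 probe sets 9 lay below 0, against 46.1% of all probe sets. In deciles 9 and 10 of mean signal, the brightest, 79.3% and 87.1% of all probe sets lay below 0. These deciles hold 5 members each, so the count of 9 is not read as a shift of the members. At their brightest probe sets the 7 genes had a median difference of −0.15, beside −0.0046 over all genes at theirs. Cyclic loess gave a median of −0.0671 for the 7, beside 0.0087 over all genes, and repeated quantile normalization −0.0633, beside 0.0126. Called means an adjusted p under 0.05 over all 54613 probe sets. In that sense 0 of 13 member probe sets and 0% of all probe sets were called by limma with a constant prior, and 8246 of all probe sets had an unadjusted p under 0.05. The smallest adjusted p anywhere on the array was 0.201.

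**Figure D1:**
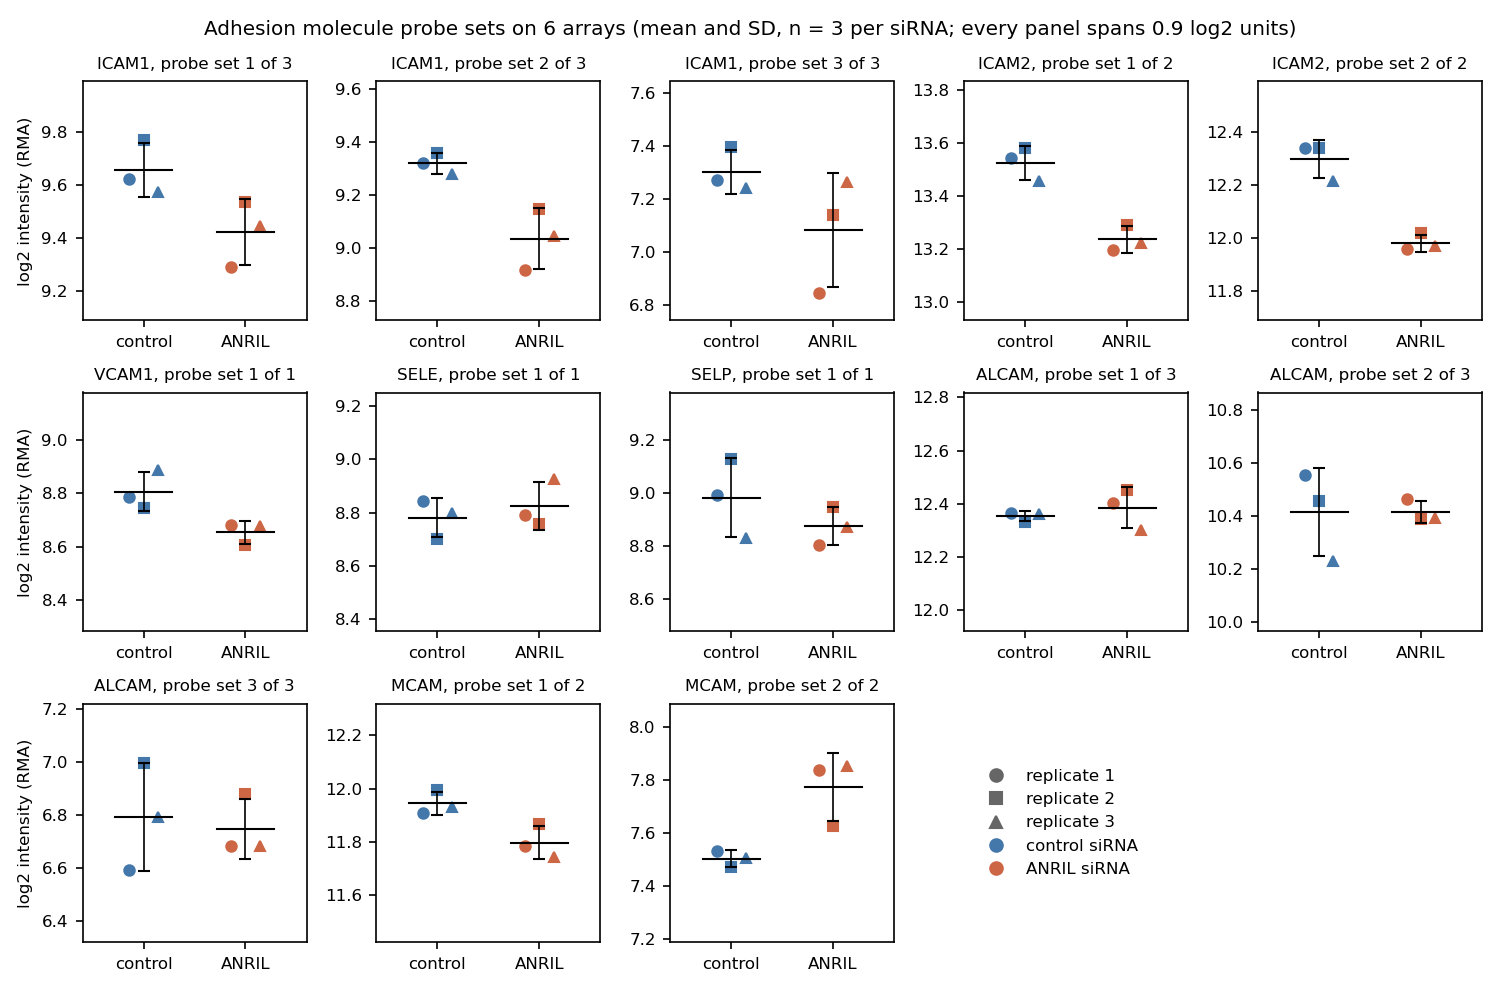
Log2 intensity (vertical axis) of each of the 13 member probe sets in the 3 control siRNA and 3 ANRIL siRNA arrays; points are arrays with a shape per replicate number, and bars give the mean and SD (n = 3). Probe sets of a gene are ranked by mean signal; the 2 groups do not overlap for both ICAM2 probe sets, 2 of 3 for ICAM1, VCAM1 and both for MCAM, where the dimmer one is higher with ANRIL siRNA.

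ICAM2, the integrin ligand of resting endothelium, read lower with ANRIL siRNA by both probe sets. Probe set 213620_s_at read 13.54, 13.58 and 13.45 on the control arrays and 13.20, 13.29 and 13.22 on the ANRIL siRNA arrays. Probe set 204683_at read 12.34, 12.34 and 12.22 on the control arrays and 11.96, 12.02 and 11.97 on the ANRIL siRNA arrays. At both, every ANRIL siRNA array lay below every control array. The difference at 213620_s_at was −0.29 ± 0.07 (SE, n = 3 per group, 95% interval −0.44 to −0.14), a 1.22-fold lower signal. At 204683_at the difference was −0.32 ± 0.07 (95% interval −0.47 to −0.17), or 1.25-fold lower. The limma adjusted p was 0.22 for each, and the two-sided exact permutation p was 0.1, the smallest that 3 against 3 arrays can give.

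The call on ICAM2 depended on how the spread was estimated. With an intensity-trended robust prior, which lets bright probe sets have the smaller spread they show on these arrays, both probe sets passed (limma adjusted p = 0.00528 and 0.00575), so ICAM2 fell under that prior. That prior called 0.577% of all probe sets as lower, and 3.13% of those in decile 10 of mean signal, the brightest, where both ICAM2 probe sets lie. Without control replicate 2 neither passed it (adjusted p = 0.0736 and 0.0868), and without any other single array both did. After cyclic loess, which removes the trend of the differences with signal, a trended prior that was not robust called both (differences of −0.21 and −0.24, limma adjusted p = 0.0385 and 0.0444). It called 0.0348% of all probe sets as lower. Below, the trended prior is the robust one except after cyclic loess, so normalization and prior both differ between those fits. No other member passed under either of these fits on all 6 arrays. Without ANRIL siRNA replicate 2 the trended robust prior called 5 member probe sets, from ICAM1, ICAM2 and MCAM. There it called 715 of all probe sets as lower and 170 as higher, against 4 as lower and 0 as higher without control replicate 2. The member counts thus moved with calls over the whole array.

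ICAM1 anchors leukocytes through the integrins LFA-1 and Mac-1. At 202638_s_at it read 9.32, 9.36 and 9.28 on the control arrays and 8.92, 9.15 and 9.04 on the ANRIL siRNA arrays. At 202637_s_at the control arrays read 9.62, 9.77 and 9.57 and the ANRIL siRNA arrays 9.29, 9.54 and 9.45. The groups did not overlap at either, and ANRIL siRNA replicate 1 was the lowest array at both. The difference was −0.28 ± 0.08 at 202638_s_at (95% interval −0.45 to −0.12, limma adjusted p = 0.22). At 202637_s_at it was −0.23 ± 0.08 (95% interval −0.42 to −0.05, limma adjusted p = 0.266).

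The third and dimmest ICAM1 probe set, 215485_s_at, read 7.27, 7.39 and 7.24 on the control arrays and 6.85, 7.14 and 7.26 on the ANRIL siRNA arrays. Its groups overlapped, since ANRIL siRNA replicate 3 lay above control replicate 3. The difference of −0.22 ± 0.10 (limma adjusted p = 0.351) moved to −0.10 without ANRIL siRNA replicate 1. The 3 ICAM1 probe sets thus had the same sign, and their 95% intervals overlapped each other.

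VCAM1 binds the integrin VLA-4 of lymphocytes and monocytes. Its probe set 203868_s_at read 8.79, 8.75 and 8.89 on the control arrays and 8.68, 8.60 and 8.68 on the ANRIL siRNA arrays. All ANRIL siRNA arrays lay below the lowest control array, by a narrow margin. The difference was −0.15 ± 0.07 (95% interval from −0.30 to just below 0, limma adjusted p = 0.33), and −0.10 after cyclic loess.

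The selectins showed smaller differences. SELE, which supports rolling on inflamed endothelium, read 8.84, 8.70 and 8.80 on the control arrays and 8.79, 8.76 and 8.93 on the ANRIL siRNA arrays (206211_at). The groups overlapped, and the highest array of the 6 was ANRIL siRNA replicate 3. The difference was 0.04 ± 0.07 (95% interval −0.12 to 0.21, limma adjusted p = 0.805), and its sign turned without that array (−0.0073) and with arrays centred on their medians (−0.0069). In the stretches shown, the SELE promoter holds 2 of the NF-kB-like matches and ICAM1 and VCAM1 hold 1 each, with a further VCAM1 match at −219. Only this 1 spelling was searched, so stretches that differ from it by a letter are missed, and the counts are not numbers of NF-kB sites. Whether the matches bear on these differences was not tested.

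SELP, the selectin kept in Weibel-Palade bodies, read 8.99, 9.13 and 8.83 on the control arrays and 8.80, 8.95 and 8.87 on the ANRIL siRNA arrays (206049_at). The control arrays spread widely and enclosed 2 of the ANRIL siRNA arrays. The difference of −0.11 ± 0.09 (95% interval −0.30 to 0.08, limma adjusted p = 0.566) ranged from −0.18 without control replicate 3 to −0.04 without control replicate 2.

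ALCAM gave no difference beyond its spread at any of its 3 probe sets. The brightest, 201952_at, read 12.37, 12.33 and 12.36 on the control arrays and 12.40, 12.45 and 12.30 on the ANRIL siRNA arrays. The control arrays were tightly grouped and lay inside the range of the ANRIL siRNA arrays. The difference was 0.03 ± 0.07 there (95% interval −0.12 to 0.18, limma adjusted p = 0.844). It was 0.00 ± 0.09 at 201951_at, where control values ran from 10.23 to 10.56. At 1569362_at it was −0.05 ± 0.10, and the control arrays again spread more widely than the ANRIL siRNA arrays. The 95% intervals of these 2 ran from −0.19 to 0.20 and from −0.28 to 0.19, so differences of that size could not be told from 0.

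MCAM was read in opposite directions by its probe sets. The bright 209087_x_at read 11.91, 11.99 and 11.93 on the control arrays and 11.78, 11.87 and 11.74 on the ANRIL siRNA arrays, with no overlap. The dimmer 1568191_at read 7.53, 7.47 and 7.50 on the control arrays and 7.84, 7.62 and 7.85 on the ANRIL siRNA arrays, again with no overlap but in the other direction. The differences were −0.15 ± 0.07 (95% interval from −0.30 to just above 0, limma adjusted p = 0.334) and 0.27 ± 0.08 (95% interval 0.10 to 0.44, limma adjusted p = 0.226). Cyclic loess put the bright probe set at −0.0671, and repeated quantile normalization put it at −0.0633, while the dimmer one stayed at 0.28 under both. A name ending in _x_at marks a probe set whose probes may also match other transcripts. Which MCAM transcripts each probe set reads was not analysed here, so no single direction is given for MCAM.

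**Figure D2:**
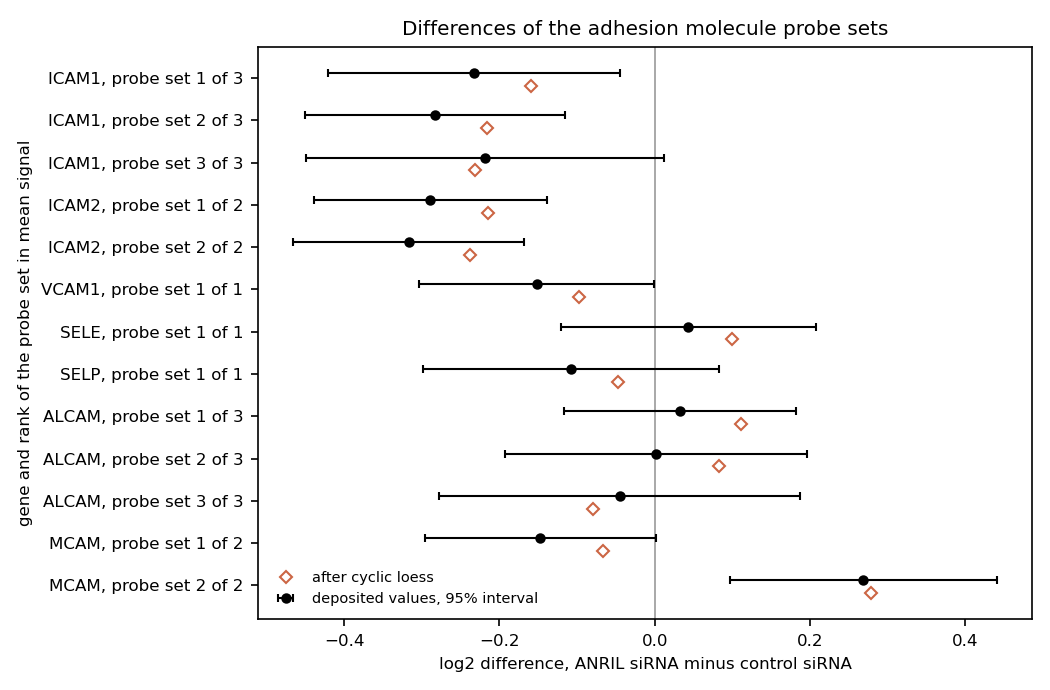
Log2 difference of each member probe set with its 95% interval from limma (black, n = 3 per group) and the same difference after cyclic loess (open diamonds); probe sets are ranked within a gene by mean signal. The ICAM1 and ICAM2 probe sets lie at −0.32 to −0.22 before and −0.24 to −0.16 after cyclic loess, and the dimmer MCAM probe set is the member farthest above 0.

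The groups did not overlap, with ANRIL siRNA lower, at 6 of the 13 probe sets: both of ICAM2, 2 of ICAM1, VCAM1 and the bright one of MCAM. With cyclic loess or repeated quantile normalization this held for 5 of 13. Over all probe sets 9.97% were of this kind, and 11% were of the opposite kind, like the dimmer MCAM probe set. At an unadjusted p under 0.05 with a lower signal there were 5 members, from ICAM1, ICAM2 and VCAM1, beside 6.14% of all probe sets. The members are mostly bright, and bright probe sets tended lower in general. In decile 10 of mean signal the median difference was −0.08, 34.8% of probe sets were lower without overlap and 16% lower at an unadjusted p under 0.05. In decile 9 these figures were −0.07, 24.9% and 15.2%. Of the 13 members, 10 lie in these 2 deciles, 5 in each.

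Set against probe sets of like signal, the members differed in place. Of the probe sets in decile 10, 1.32% and 0.696% had a lower difference than those of ICAM2, and 94.2% a lower one than the brightest ALCAM probe set. In decile 9 2.71% and 5.35% lay below the bright ICAM1 probe sets, 18.5% below VCAM1, 33.3% below SELP and 89.9% below SELE. For the dimmer MCAM probe set 99.4% of its decile lay below it. These percentages describe the arrays and are no test.

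**Figure D3:**
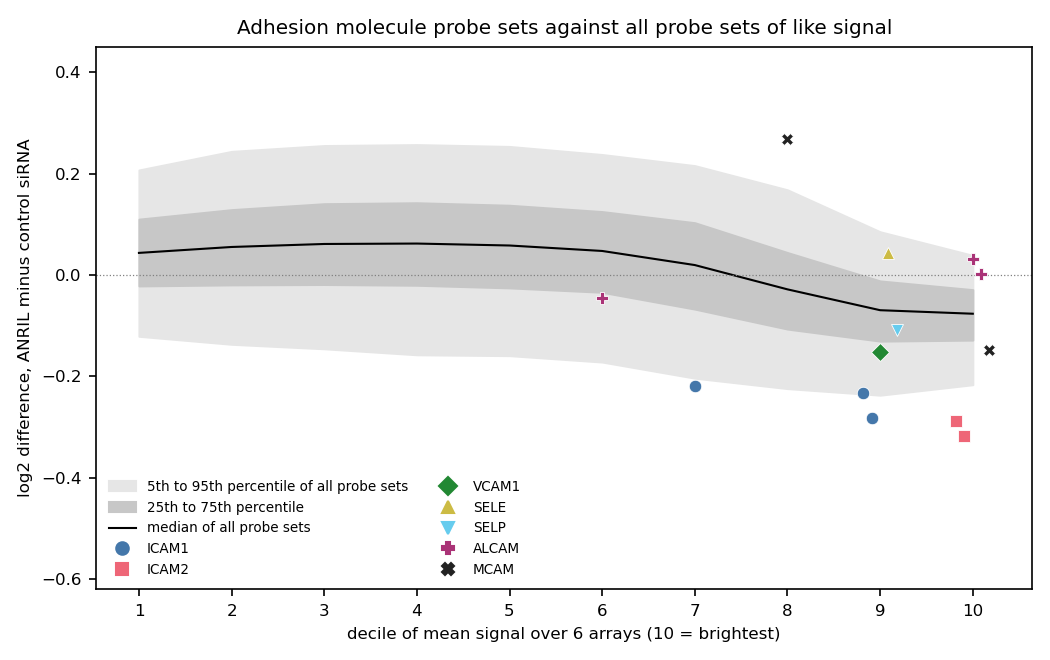
Log2 difference (vertical axis) against the decile of mean signal over 6 arrays (horizontal axis, 10 the brightest); grey bands and the line give percentiles and the median of all 54613 probe sets, and symbols are the 13 member probe sets, moved sideways in deciles 9 and 10 so that they do not cover each other. ICAM1 and ICAM2 lie near or below the lower edge of the outer band, and SELE and the 2 brighter ALCAM probe sets in the upper part of their deciles, while the dimmest ALCAM probe set lies below the median of its decile.

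Whether the genes differed from one another was tested on log2 ratios within each array, for the 21 combinations of the 7 brightest probe sets. Relative to ALCAM, ICAM2 was lower by 0.32 with ANRIL siRNA and ICAM1 by 0.27, and relative to SELE, ICAM2 was lower by 0.33 and VCAM1 by 0.20. In 9 combinations, these 4 among them, the 2 groups did not overlap (exact permutation p = 0.1, the smallest possible, and 0.233 after Benjamini-Hochberg adjustment over 21). The ratio of ICAM1 to ICAM2 differed by 0.06 and its groups overlapped (exact permutation p = 0.3). None of the 21 passed, which this number of arrays does not allow, so the test could not decide the question. The 21 ratios reuse the same 7 probe sets, and the 4 named pair low genes of these same data with genes near 0. The share of such ratios among other genes was not computed, so the 9 is a description only.

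Genes that act beside these molecules were taken from 8 lists, with 1 probe set, the brightest, per gene, and 0 members of any list were called by limma with the constant prior. The junction proteins that leukocytes pass were lower at 8 of 9 genes measured, with a median of −0.14, and 5 did not overlap. After cyclic loess 7 of 9 were lower, with a median of −0.05. VE-cadherin (CDH5) differed by −0.28 ± 0.07 (limma adjusted p = 0.22), ESAM by −0.20 ± 0.08, CD99 by −0.16 ± 0.06 and PECAM1 by −0.16 ± 0.07. With the trended prior CDH5 (limma adjusted p = 0.0173) and CD99 (0.0479) fell, but neither call held after cyclic loess with a trended prior (CDH5 −0.20, adjusted p = 0.0815; CD99 −0.08, adjusted p = 0.223). All genes at their brightest probe set were lower in 51.4% of cases and lower without overlap in 12.8%. Most of these junction genes lie in deciles 9 and 10 of mean signal. There 79.3% and 87.1% of all probe sets were lower, and 24.9% and 34.8% were lower without overlap.

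The cytokine receptors, NF-kB subunits and other regulators that act upstream of ICAM1, VCAM1 and SELE, a list that holds NF-kB inhibitors (NFKBIA, NFKBIB, NFKBIE and TNFAIP3) as well as activators, were lower at 20 of 23 genes, with a median of −0.08, and 6 did not overlap. TLR4, the lipopolysaccharide receptor, differed by −0.19 ± 0.08, the NF-kB subunit gene NFKB1 by −0.15 ± 0.06, ATF2 by −0.16 ± 0.08 and the NF-kB inhibitor TNFAIP3 by −0.13 ± 0.06, and none passed with either prior. After cyclic loess 17 of 23 were lower, with a median of −0.04. Most of the 23 genes lie in deciles 9 and 10 of mean signal. In these deciles 79.3% and 87.1% of all probe sets were lower, and 24.9% and 34.8% were lower without overlap. The counts are therefore not read as a shift of this list. Other genes that cytokines induce in endothelium were lower at 6 of 11 and at 4 of 11 after cyclic loess. Of these, CCL2, a monocyte chemokine, differed by −0.42 ± 0.08, and TNFSF10, the death ligand TRAIL, by −0.63 ± 0.10, and both fell with the trended prior (limma adjusted p = 0.0106 and 0.00931). After cyclic loess with a trended prior TNFSF10 passed again (adjusted p = 0.0444) and CCL2 did not (adjusted p = 0.0628). The chemokine genes CCL20 and CXCL2 differed by −0.16 ± 0.09 and −0.12 ± 0.08.

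Weibel-Palade body genes, the company of SELP, were lower at 12 of 13 genes by a small amount, with a median of −0.07, and at 4 of 13 after cyclic loess, with a median of 0.01. VWF, the main cargo, differed by −0.11 ± 0.07, ANGPT2 by −0.11 ± 0.07, SYTL4 by −0.10 ± 0.07 and SNAP23 by −0.09 ± 0.06. The cytoplasmic partners of ICAM1 and VCAM1 behaved likewise, lower at 13 of 14 with a median of −0.04, and at 3 of 14 after cyclic loess. Among them CAV1, the coat protein of caveolae, differed by −0.25 ± 0.07 and fell with the trended prior (limma adjusted p = 0.0141), a call that did not hold after cyclic loess with a trended prior (−0.18, adjusted p = 0.0974). RHOG differed by −0.15 ± 0.07, ARHGEF26 by −0.12 ± 0.13 and CD151 by −0.06 ± 0.08. All Weibel-Palade body genes and all partners except ARHGEF26 lie in deciles 9 and 10 of mean signal. There 79.3% and 87.1% of all probe sets were lower, so neither count is read as a shift of the list.

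Sheddases, which cut adhesion molecules from the surface, and their inhibitors were lower at 7 of 8 genes, with a median of −0.06, and at 6 of 8 after cyclic loess. ADAM17 differed by −0.15 ± 0.07, ADAM9 by −0.16 ± 0.07 and the metalloproteinase inhibitor TIMP1 by −0.10 ± 0.07. All 3 lie in deciles 9 and 10 of mean signal, where 79.3% and 87.1% of all probe sets were lower. TIMP3, which inhibits ADAM17, was the exception at 0.27 ± 0.07, with all ANRIL siRNA arrays above all controls (limma adjusted p = 0.22 with the constant and 0.0749 with the trended prior).

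Other adhesion molecules and selectin ligands were lower at 7 of 11 with a median of −0.06, and at 9 of 11 after cyclic loess. Those of smallest p were the hyaluronan receptor CD44 (−0.11 ± 0.06), VNN1 (0.13 ± 0.08), ICAM4 (−0.16 ± 0.10) and GLG1 (−0.11 ± 0.07). The integrin subunits by which leukocytes bind ICAM1 and VCAM1 were lower at 1 of 7, with a median of 0.07, and at 2 of 7 after cyclic loess. ITGAX (0.20 ± 0.07), ITGB2 (0.18 ± 0.07), ITGAM (0.22 ± 0.10) and ITGA4 (0.07 ± 0.06) all lay above 0 and none passed with either prior. ITGB1, a subunit that endothelial cells make too, differed by 0.00 ± 0.06. Except ITGB1 and ITGA4, these subunits lie in deciles 4 to 6 of mean signal, where 30.7% to 34.7% of all probe sets were lower. Their count is not read as a shift of the list.

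**Figure D4:**
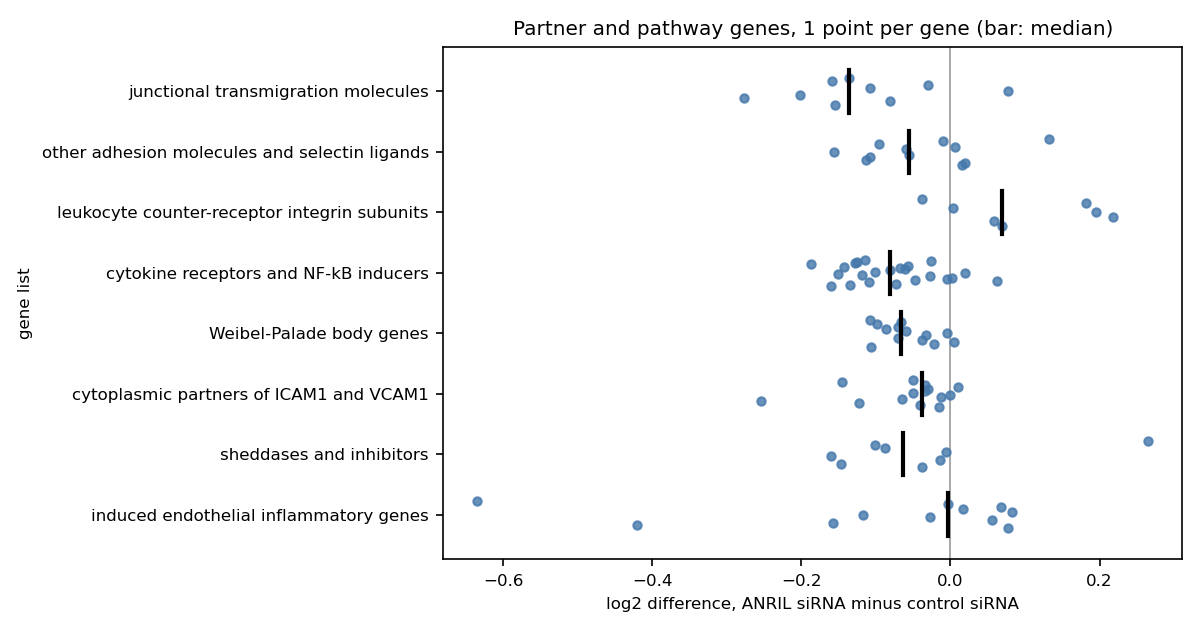
Log2 differences of the genes in 8 lists of adhesion partners and pathway genes (horizontal axis), 1 point per gene at its brightest probe set, with the median of each list as a bar. Most medians lie slightly below 0, the leukocyte integrin subunits lie above it, and CCL2, TNFSF10 and TIMP3 stand apart from their lists.

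By correlation over the 6 arrays, the genes most like each member were HIPK1 (r = 0.999) and RNASE1 (0.996) for ICAM2, and LAMTOR3 (0.995) and GDPD5 (0.993) for ICAM1. PLA2G12A (0.994) and RSPO3 (0.981) were most like VCAM1, KRT32 (0.983) and PABPC1 (0.98) most like SELE, and TMEM144 (0.992) and TPPP3 (0.992) most like SELP. For ALCAM they were OCEL1 (0.993) and MORN1 (0.971), and for MCAM FXR1 (0.999) and XRCC1 (0.998). These are the highest correlations among all genes above the median signal, over 6 points that share 2 groups, and they carry no test.

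The arrays correlated at 0.9971 to 0.9977 within groups and 0.9964 to 0.9974 between groups, across probe sets. CDKN2B-AS1, which is ANRIL, has 1 probe set near the floor of the array, where the difference was −0.10 ± 0.10 (limma adjusted p = 0.666), and it gave no check of the knockdown. Markers of endothelium were lower at 10 of 10 genes (median −0.17), and at 9 of 10 after cyclic loess (median −0.10). Of all probe sets in deciles 9 and 10 of mean signal, 79.3% and 87.1% were lower. The log2 of the summed intensities of the endothelial markers was 15.30 to 15.40 with control siRNA and 15.13 to 15.24 with ANRIL siRNA. The groups did not overlap, while 9 of the 13 member probe sets lay below 0. Such a sum weighs bright markers most, and VWF and PECAM1 are the brightest here. Leukocyte markers were lower at 1 of 9 (median 0.15), and summed to 9.42 to 9.52 with control and 9.54 to 9.70 with ANRIL siRNA. Of these 9 markers 5 read below the median signal of all probe sets, and 2 were higher without overlap. Except CD3E and CD53, they lie in deciles 2 to 6 of mean signal, where 29.9% to 34.7% of all probe sets were lower. CD3E and CD53 lie in decile 8, where 60.7% were lower. The counts of leukocyte markers are not read as a shift. Platelet, smooth muscle, fibroblast and epithelial markers were lower at 3 of 6, 3 of 8, 5 of 6 and 2 of 6 genes, with medians of 0.01, 0.12, −0.07 and 0.03. Despite its median, the smooth muscle list summed to a lower level without overlap, 13.93 to 13.95 with control and 13.88 to 13.91 with ANRIL siRNA. That sum is mostly RGS5, by far its brightest marker, at 13.74 to 13.75 with control and 13.70 to 13.73 with ANRIL siRNA. It is not read as a level of the list, in which 5 of 8 markers were higher. The sums of the platelet, fibroblast and epithelial markers overlapped. The 3′ signal of ACTB exceeded its 5′ signal by 0.72 ± 0.13 (SD, n = 3) with ANRIL siRNA and 0.54 ± 0.05 with control siRNA (exact permutation p = 0.2). For GAPDH this measure was higher by 0.06 (exact permutation p = 0.1). The part of these measures in the members' differences was not tested, and in bulk RNA fewer cells of a type and less RNA per cell cannot be told apart.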

How the data were processed

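Per the submitters' processing notes, the authors used RMA, affy and limma, and the deposited table holds log2 intensities of 54675 probe sets on 6 arrays, with medians of 6.14 to 6.23. Versions and filters are not given there. RMA subtracts background, normalizes by quantiles and summarises probes. After 62 control probe sets were left out, lmFit and eBayes of limma 3.58.1 (R 4.3.3) compared 3 ANRIL siRNA with 3 control siRNA arrays with a constant prior and Benjamini-Hochberg adjustment over all 54613 probe sets, two-sided. Symbols came from the platform annotation, updated through Entrez identifiers. Of the probe sets 41091 had 1 symbol, 1801 several and 11721 none listed. All member probe sets are named, in each list the up to 4 genes of smallest p, and the 2 genes most correlated with each member, among genes above the median signal. ITGB1, NFKBIA, NFKBIB, NFKBIE and CDKN2B-AS1 are named outside this rule. Members and lists were chosen with earlier results of these data known. Alternatives were a replicate block, other priors, normalizations, filters and thresholds, array weights, and each array left out. The trended prior without each array, and counts of members without overlap after each normalization, were added after seeing the data. Run on a simulation of 54613 probe sets, the same fit found 67% of 1.5-fold and 95% of 2-fold differences, with 4 false calls. The simulation shuffled the spreads among probe sets and drew independent normal noise, so it lacks the trends with signal seen on these arrays. Differences as small as those of the members were not simulated, so it does not give the power to find them. The number of arrays limits the precision. Same-numbered arrays did not deviate together (r = 0.06, 0.14 and −0.04), so the numbers were not taken as pairs.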

Additional observations from a re-analysis of the deposited data

How the results depend on the processing

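No member probe set was called with the constant prior under any scaling, filter, threshold, array weight or array left out. With the replicate block 0 members and 0 of all probe sets were called, as without it, and the smallest correlation between arrays of one number was −0.04, with not every array closest to its own number. The trended robust prior called 2 members (both ICAM2) and 344 probe sets in all, 29 higher and 315 lower. Cyclic loess with a trended prior that was not robust called 2 members and 26 in all, 7 higher and 19 lower. Without 1 array, the trended robust prior called 0 (control replicate 2) to 5 members (ANRIL siRNA replicate 2, where ICAM1 and MCAM joined ICAM2), a setting chosen after seeing the data. Over all probe sets the same fits called 4 lower and 0 higher, and 715 lower and 170 higher. Centring on array medians called 4 probe sets in all and the filter on signal 1. The median over the 7 genes was −0.15, and −0.0633 after repeated quantile normalization, −0.0671 after cyclic loess with either prior and −0.20 with centred arrays. Signs turned only near 0. With centred arrays SELE was at −0.0069 and ALCAM at −0.0179 (201952_at) and −0.0489 (201951_at). With single arrays left out, SELE ranged from −0.0073 to 0.0779, and ALCAM from −0.0016 to 0.0752 (201952_at), −0.0903 to 0.0722 (201951_at) and −0.146 to 0.0565 (1569362_at).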
